A study of Mus musculus with 9 samples.

Results

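The miRNAs mmu-miR-219a-5p, mmu-miR-219a-2-3p, mmu-miR-338-3p and mmu-miR-338-5p were followed through small RNA libraries of the mouse hippocampus. They were taken by name and are 4 of the 1448 mature miRNAs listed, and each of the 4 passed the filter on low counts. The 9 libraries came from C57BL/6J mice, with 3 libraries for each of 3 treatments (saline, LPS, or LPS followed by GAS). The saline group received 0.9% saline. The LPS group received a single intraperitoneal dose of 1 mg/kg LPS, a bacterial endotoxin that sets off systemic inflammation, and its labels name 0.12% saline as well. The LPS + GAS group received the same LPS and 100 mg/kg GAS (gastrodin, a phenolic glucoside of the orchid Gastrodia elata), which the labels place 1 h after LPS. The flow chart of the sequencing experiment puts tissue collection 5 h after GAS, while other passages of the study give another order of the injections. The methods of the study describe adult male animals, and neither the labels nor the methods say whether hippocampi were pooled or in which batches the libraries were made. The p-values therefore measure the spread between these libraries. The question of the design was which miRNAs change with LPS and which change again when GAS is added.

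MiR-219 and miR-338 are known as the miRNAs most typical of oligodendrocytes, the cells that wrap axons of the central nervous system in myelin. Their levels are low in dividing oligodendrocyte precursors and rise as these cells leave the cell cycle and mature. They act by pairing of the seed, bases 2 to 8 of the miRNA, with messenger RNAs, and known targets of miR-219 include messenger RNAs of factors that keep precursors dividing, such as the growth factor receptor PDGFRα and the transcription factors Sox6 and Hes5. In bulk tissue, fewer oligodendrocytes and less of these miRNAs per oligodendrocyte cannot be told apart. The libraries hold no messenger RNA, so the cell type itself could not be checked beyond the presence of these miRNAs.

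The mature sequences are shown because they set what each miRNA can pair with. The letters are those of the deposited table, the capitals mark the seed, and each runs from 5′ to 3′.
miR-219a-5p: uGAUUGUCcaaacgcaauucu
miR-219a-2-3p: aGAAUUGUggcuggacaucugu
miR-338-3p: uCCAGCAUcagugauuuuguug
miR-338-5p: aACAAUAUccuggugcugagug
The 4 seeds differ from each other, and 0 other rows of the 1448 share the seed of any of them. The members are thus 4 separate targeting specificities from few hairpins, and not a seed family.

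The hairpins show how the members are related, and their capitals mark the mature arms. They were matched to RefSeq on GRCm38.p6 and equal the precursors in the deposited table.
Mir219a-2: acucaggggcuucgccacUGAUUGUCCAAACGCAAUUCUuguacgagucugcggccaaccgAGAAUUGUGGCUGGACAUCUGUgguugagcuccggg
Mir219a-1: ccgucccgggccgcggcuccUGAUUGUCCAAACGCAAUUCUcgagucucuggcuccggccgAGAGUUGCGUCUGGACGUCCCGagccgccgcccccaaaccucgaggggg
Mir338: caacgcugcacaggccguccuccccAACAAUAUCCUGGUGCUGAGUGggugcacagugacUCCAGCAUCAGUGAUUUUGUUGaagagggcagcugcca
Mir219a-2 lies at chr2:29845631-29845727 on the minus strand, outside annotated genes of GENCODE M21, with Urm1 as the nearest protein-coding gene at 629 bp. Mir219a-1 lies at chr17:34024983-34025092 on the minus strand and partly covers an exon of the lincRNA Gm26940 on the same strand. Mir338 lies at chr11:120014765-120014862 on the minus strand, inside an intron of Aatk (chr11:120007313-120047167), which codes for a kinase and is read from the same strand. The 5p arms of Mir219a-1 and Mir219a-2 are the same letters, so a read of miR-219a-5p can come from chr17:34025052-34025072 or from chr2:29845689-29845709. The 3p arms differ. MiR-219a-2-3p is read from chr2:29845645-29845666, and miR-219a-1-3p, the 3p arm of the other hairpin, had only 3 to 13 reads per library.

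Each library held 10119758 to 11457656 reads on miRNAs, and 1008 to 1046 miRNAs had reads in a library. Levels are given in CPM, counts scaled to a common library total with edgeR's TMM factor, and errors are SDs over 3 libraries. LPS replicate 2 stood apart from the others, with a TMM factor of 1.19 against 0.914 to 1.09. It held the lowest level of 123 of the 628 miRNAs tested (19.6%) and the highest level of 107 (17.0%). All 4 members were lowest there, and results that rest on this library are given with and without it.

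MiR-219a-2-3p, the 3p arm of the chromosome 2 hairpin, was the most abundant member. In the saline group it measured 3384, 3329 and 2146 CPM in replicates 1, 2 and 3. In the LPS group it measured 2049.9, 982 and 2764 CPM, and in the LPS + GAS group 3252, 2597 and 1732 CPM. The LPS group reached lower than the others, but its replicate 3 stood above saline replicate 3 and above 2 of the LPS + GAS libraries, so the groups overlapped. Its group means were 2953 ± 699 in saline, 1932 ± 897 in LPS and 2527 ± 762 in LPS + GAS (SD, n = 3 each). These levels placed it between rank 43 and rank 81 of the 628 miRNAs.

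MiR-338-5p, the arm at the 5′ side of the Mir338 hairpin, came next. It measured 1270.4, 1186 and 972 CPM in the saline group, 950.3, 521 and 1124 CPM in the LPS group, and with LPS + GAS 1166, 1158 and 786 CPM. It was the steadiest member, and without LPS replicate 2 its 8 remaining libraries stayed within 1.62-fold. Its means were 1143 ± 154, 865 ± 310.3 and 1037 ± 217 in the same order (SD, n = 3 each).

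MiR-338-3p, the opposite arm and the form usually studied in oligodendrocytes, measured 1106, 1224 and 592 CPM in the saline group. It measured 786, 400.3 and 729.8 CPM in the LPS group, and with LPS + GAS 1056, 945 and 632 CPM. Saline replicate 3 fell below 2 of the LPS libraries, so the saline and LPS groups overlapped. Its means were 974 ± 336, 639 ± 208 and 878 ± 219.7 (SD, n = 3 each).

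MiR-219a-5p, the arm shared by both miR-219a hairpins, was the least abundant. It measured 219, 265 and 119.7 CPM in the saline group, 151, 60.5 and 154 CPM in the LPS group, and with LPS + GAS 332, 169 and 141 CPM. Of the LPS values 2 lay within the range of the saline group, and LPS + GAS replicate 1 was far above its own group. Its means were 201 ± 74.3, 122 ± 53.2 and 214 ± 103 (SD, n = 3 each). It was counted from 728 reads in LPS replicate 2 to 3555 reads in LPS + GAS replicate 1, so counting error is small beside the spread between libraries.

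**Figure D1:**
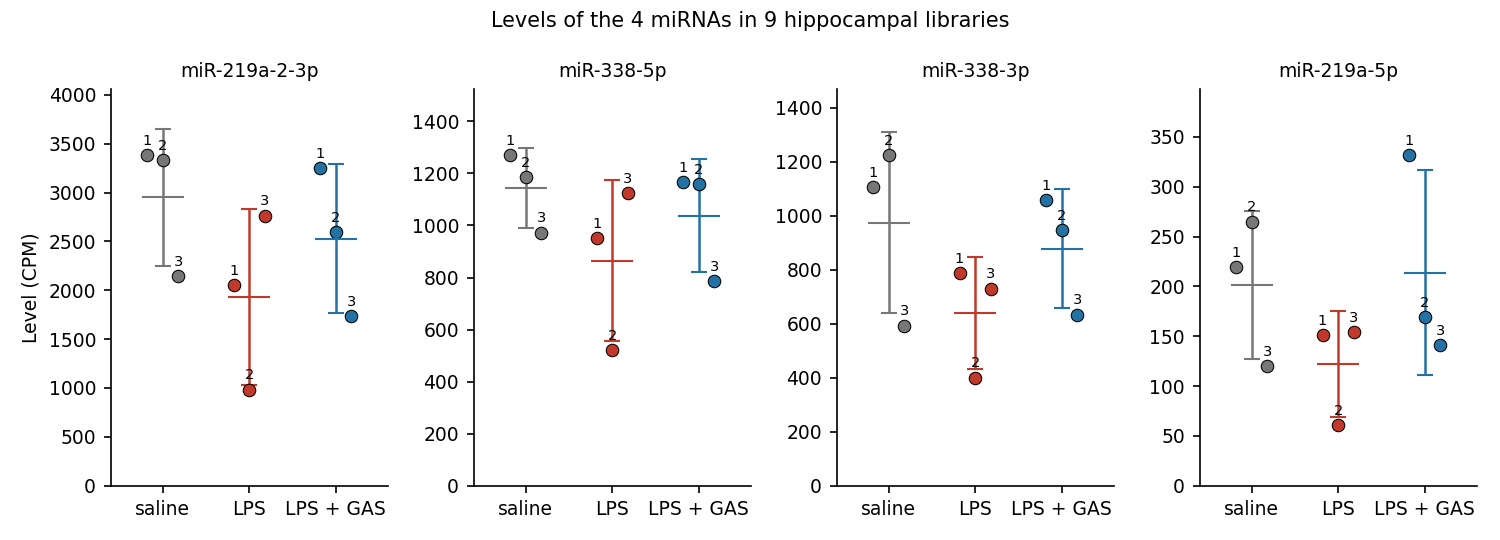
Levels of miR-219a-2-3p, miR-338-5p, miR-338-3p and miR-219a-5p in CPM (vertical axes, linear from 0, a scale for each miRNA), by treatment group. Numbered points are libraries by replicate, the horizontal bar is the group mean and the whiskers are 1 SD (n = 3). LPS replicate 2 is the lowest point in all 4 panels, and the groups overlap in each.

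The order of the members was close to fixed within a library. MiR-219a-2-3p exceeded miR-338-5p in 9 of 9 libraries, by 1.89-fold to 2.81-fold. MiR-338-3p exceeded miR-219a-5p in 9 of 9 libraries, by 3.18-fold to 6.62-fold. MiR-338-5p and miR-338-3p were neighbours, with miR-338-5p higher in 8 of 9 libraries and a ratio that ran from 0.969 to 1.64. The mean of their log2 ratio within a library was 0.32 (SD 0.23, n = 9). The members have 21 or 22 bases each, so length adds little to these differences, but ligation and amplification favour some miRNAs over others, and levels of different miRNAs in small RNA libraries are approximate. Together the 4 members took 0.234% of the reads in LPS replicate 2 and 0.652% in saline replicate 2, the lowest and the highest shares.

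The range of the members over the libraries was wide. The highest library exceeded the lowest by 5.49-fold for miR-219a-5p, 3.44-fold for miR-219a-2-3p, 3.06-fold for miR-338-3p and 2.44-fold for miR-338-5p. The median of this range was 1.70-fold over the 185 miRNAs with a mean of at least 100 CPM, of which 34, the members included, reached the range of miR-338-5p or more. This was not tested. Part of the width came from LPS replicate 2. There the members stood at 0.396 (miR-219a-5p), 0.408 (miR-219a-2-3p), 0.502 (miR-338-5p) and 0.528 (miR-338-3p) of the mean of the other LPS libraries. Without LPS replicate 2 the ranges were still 2.77, 1.95, 2.07 and 1.62 for miR-219a-5p, miR-219a-2-3p, miR-338-3p and miR-338-5p. With reads scaled by the library total alone, without the TMM factor, each member was still lowest in LPS replicate 2. MiR-219a-5p, for example, had 71.9 CPM on that scale there against 112.5 in the next lowest library.

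None of the 4 members changed between the saline and LPS groups when tested in edgeR (quasi-likelihood, p adjusted by Benjamini-Hochberg over 628 miRNAs). A miRNA counted as called when its adjusted p did not exceed 0.05 and its level differed by 1 or more on the log2 scale. The number of calls was 0 of 4 members and 0 of all 628 (0%). At an unadjusted p under 0.05 there were 0 members against 15 of all miRNAs (2.39%), and groups that did not overlap were found for 0 members against 24 of all miRNAs (3.82%). The fitted values of the 4 members were all negative, at −0.72 (SE 0.45) for miR-219a-5p, −0.61 (SE 0.37) for miR-219a-2-3p, −0.61 (SE 0.34) for miR-338-3p and −0.40 (SE 0.28) for miR-338-5p, with an adjusted p of 0.992 for each. The median over the members was −0.61, beside −0.045 over all miRNAs tested. Since the members rise and fall together between libraries, 4 negative values are not 4 separate observations.

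The 95% intervals of these log2 fold changes show what 3 libraries per group could resolve. They ran from −1.72 to 0.28 for miR-219a-5p, from −1.44 to 0.22 for miR-219a-2-3p, from −1.37 to 0.15 for miR-338-3p and from −1.04 to 0.23 for miR-338-5p. Each interval included both 0 and a lowering by more than 1 on the log2 scale, so a marked fall could not be told from no difference. Without LPS replicate 2 the values moved to −0.37, −0.26, −0.34 and −0.11 in the same order. Leaving out saline replicate 1 or 2 also moved all 4 toward 0, for example to −0.43 for miR-219a-5p and −0.37 for miR-338-3p without saline replicate 2. Leaving out saline replicate 3, LPS replicate 1 or LPS replicate 3 moved all 4 away from 0, to as low as −0.99 for miR-219a-5p without saline replicate 3 and −0.96 for miR-219a-2-3p without LPS replicate 3.

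Between the LPS and LPS + GAS groups the fitted values of the members were all positive, and none passed the test. The log2 fold change was 0.81 (SE 0.45, 95% interval −0.19 to 1.81, adjusted p = 0.903 by edgeR) for miR-219a-5p and 0.46 (SE 0.34, −0.30 to 1.22, adjusted p = 0.903) for miR-338-3p. It was 0.39 (SE 0.37, −0.44 to 1.22, adjusted p = 0.914) for miR-219a-2-3p and 0.26 (SE 0.28, −0.37 to 0.89, adjusted p = 0.935) for miR-338-5p. Calls were made for 0 of 4 members and for 0 of 628 miRNAs (0%). An unadjusted p under 0.05 was found for 0 members and for 23 of all miRNAs (3.66%), and no overlap between groups for 0 members and for 54 of all miRNAs (8.6%). The median was 0.42 over the members and 0.0030 over all miRNAs tested. This comparison uses the same LPS libraries as the one with saline, so LPS replicate 2 enters both with opposite sign, and without it the values were 0.50 for miR-219a-5p, 0.23 for miR-338-3p, 0.088 for miR-219a-2-3p and 0.019 for miR-338-5p. Without LPS + GAS replicate 1 the value of miR-219a-5p was 0.37 and that of miR-219a-2-3p 0.19. MiR-219a-2-3p and miR-338-5p were higher without LPS replicate 3 (0.74 and 0.50) and without LPS + GAS replicate 3 (0.62 and 0.45).

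The LPS + GAS and saline groups had close means for the members. The log2 fold change was 0.088 (SE 0.45) for miR-219a-5p, −0.22 (SE 0.37) for miR-219a-2-3p, −0.15 (SE 0.34) for miR-338-3p and −0.14 (SE 0.28) for miR-338-5p, each with an adjusted p of 0.998 by edgeR. The 95% intervals were −0.91 to 1.09, −1.05 to 0.60, −0.91 to 0.61 and −0.77 to 0.49 in the same order, so changes of up to about 1 on the log2 scale were not resolved. Calls were made for 0 of 4 members and for 1 of 628 miRNAs (0.159%), which was miR-21a-3p. An unadjusted p under 0.05 was found for 0 members and for 21 of all miRNAs (3.34%), and no overlap between groups for 0 members and for 46 of all miRNAs (7.32%). The median was −0.15 over the members and −0.028 over all miRNAs tested.

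**Figure D2:**
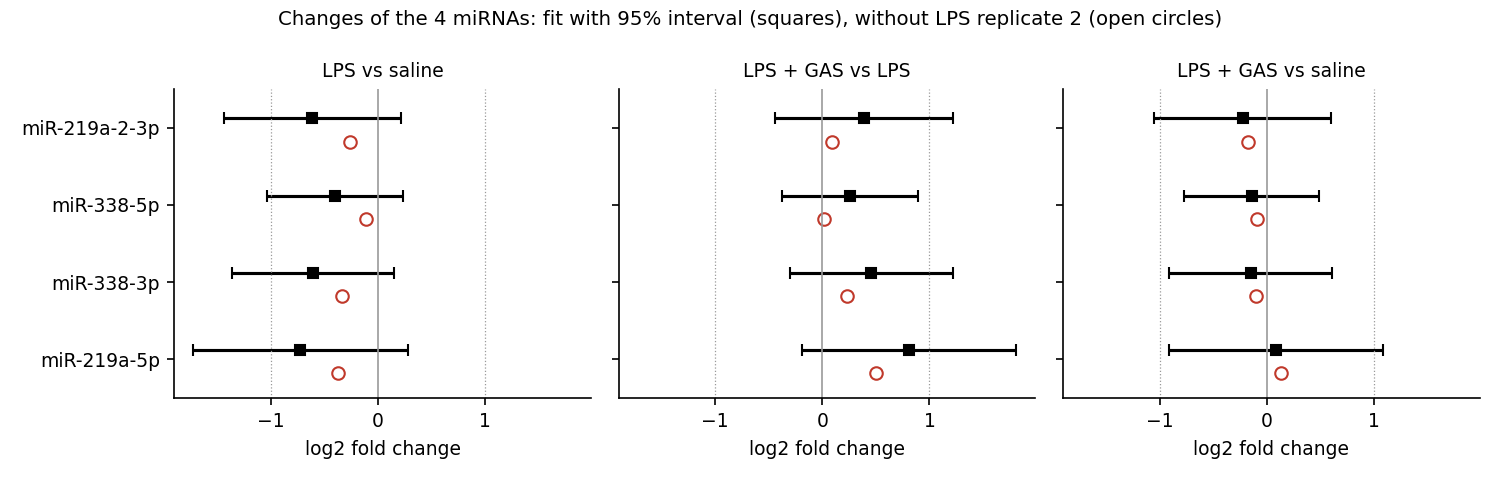
Log2 fold changes of the 4 members (horizontal axis), with a panel for each pair of groups compared. Squares are the edgeR fit to 9 libraries with 95% intervals, open circles the fit without LPS replicate 2, and dotted lines mark 1 on the log2 scale in either direction. Every interval crosses 0, and in the 2 comparisons that use the LPS group each open circle lies nearer to 0 than its square.

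The members rose and fell together from library to library. Over the 9 libraries, Pearson's r of log2 CPM was 0.865 to 0.982 for the 6 pairs and Spearman's rho 0.867 to 0.983. By exact permutation over all pairings of the 9 libraries, the p-values adjusted over the 6 pairs were 0.000149 to 0.00271 for r and 0.000298 to 0.00451 for rho. The closest pair was miR-219a-2-3p and miR-338-5p, which come from different chromosomes, with r = 0.982. The deviations from the group means gave r of 0.845 to 0.977, about as high as before the group means were removed. The 2 libraries farthest from the median were also left out. They were not the same for every pair, although LPS replicate 2 was always among them. Then r was 0.698 to 0.963. By exact permutation 5 of 6 pairs kept an adjusted p of at most 0.0376, while that of miR-219a-5p and miR-338-5p was 0.0812. Without LPS replicate 2 alone, r was 0.652 to 0.953, and by exact permutation the same pair again missed the threshold by r, with an adjusted p of 0.0804. By rho this pair passed in both settings, with rho of 0.857 and 0.833 and exact permutation p-values of 0.0410 and 0.0218 after adjustment over the 6 pairs. The points of each pair share a library and its scaling. A different measure, the r of each of the other 624 miRNAs with the mean of the members, had a median of 0.036. It is not a background for the r of pairs.

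Ratios within a library do not depend on the scaling. The ratio of miR-219a-2-3p to miR-219a-5p was 15.4, 12.6 and 17.9 in the saline group, 13.6, 16.2 and 18.0 in the LPS group and 9.80, 15.3 and 12.3 in the LPS + GAS group. The lowest ratio was that of LPS + GAS replicate 1, the library with the highest miR-219a-5p. In LPS replicate 2, where both arms were at their lowest, the ratio of 16.2 lay inside the range of the others.

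The ratio of miR-338-5p to miR-338-3p was 1.15, 0.969 and 1.64 in the saline group, 1.21, 1.30 and 1.54 in the LPS group and 1.10, 1.22 and 1.24 in the LPS + GAS group. Both arms of this hairpin were thus present at similar levels, with the 5p arm ahead in 8 of 9 libraries. The ratio of miR-219a-5p to miR-338-3p, members of different hairpins, was 0.198, 0.217 and 0.202 in the saline group, 0.192, 0.151 and 0.211 in the LPS group and 0.314, 0.179 and 0.223 in the LPS + GAS group. Here LPS replicate 2 had the lowest ratio and LPS + GAS replicate 1 the highest, so the 2 miRNAs did not move by equal factors in these libraries.

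None of the 9 comparisons of a ratio between groups passed a test. In exact two-sided permutation tests of the log2 ratio, p ranged from 0.2 to 0.9 and adjusted p from 0.72 to 0.9, where 3 libraries against 3 cannot give less than 0.1. The differences in mean log2 ratio were small for the miR-338 arms, from −0.18 in LPS + GAS vs LPS to 0.14 in LPS vs saline. The most negative difference was −0.36, for miR-219a-2-3p to miR-219a-5p in LPS + GAS vs LPS. That mean log2 ratio was 3.62 ± 0.32 in the LPS + GAS group and 3.98 ± 0.21 in the LPS group (SD, n = 3 each). The most positive difference was 0.34, for miR-219a-5p to miR-338-3p in the same comparison. Without LPS + GAS replicate 1, these differences were −0.20 and 0.12.

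**Figure D3:**
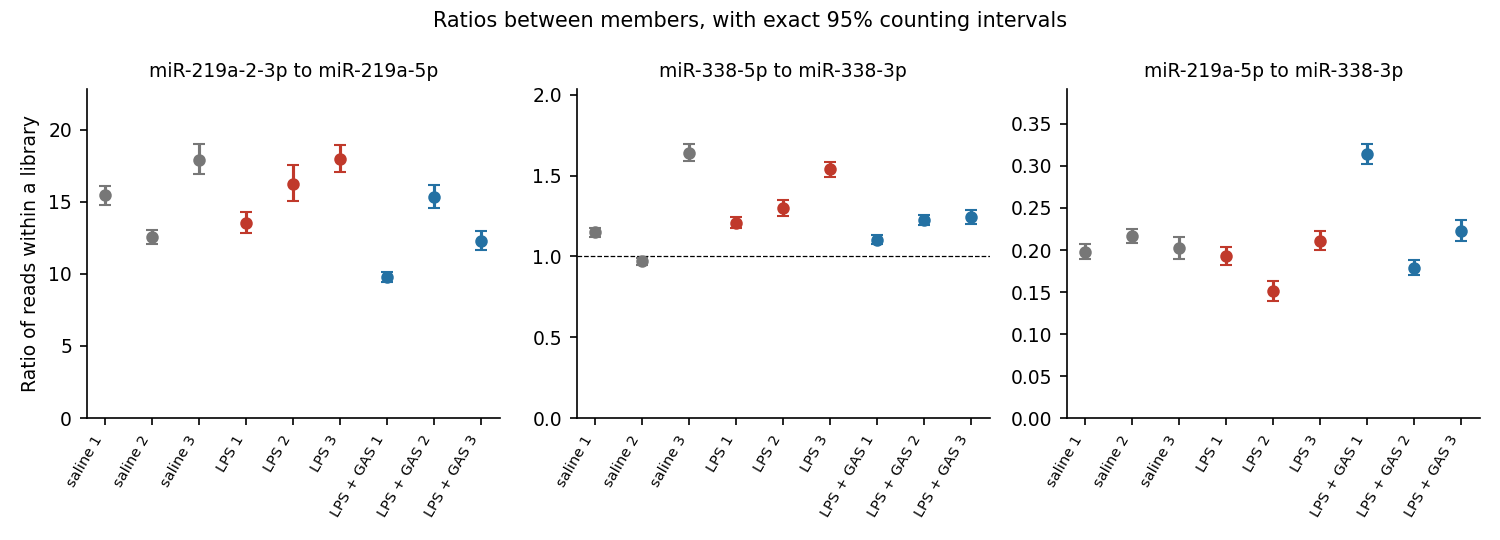
Ratio of reads between members within each of 9 libraries (vertical axes, linear from 0), with saline in grey, LPS in red and LPS + GAS in blue. Whiskers are exact 95% intervals for counting error only. The ratio of miR-219a-2-3p to miR-219a-5p runs from 9.80 to 18.0, and the miR-338 ratio lies above 1 (broken line) in 8 of 9 libraries.

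The same places of the genome also give miRNAs from the opposite strand, and these are shown because they overlap the members base for base. The letters come from the deposited table with the seed in capitals.
miR-219b-5p: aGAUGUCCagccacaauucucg
miR-3065-5p: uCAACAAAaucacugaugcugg
miR-3065-3p: uCAGCACCaggauauuguugggg
Mir219b lies at chr2:29845647-29845711 and Mir3065 at chr11:120014767-120014853, both on the plus strand. MiR-219b-5p overlaps miR-219a-2-3p over 20 bases, miR-3065-3p overlaps miR-338-5p over 19 bases, and miR-3065-5p overlaps miR-338-3p over 21 bases. None of them shares a seed with a member. The whole length of a mature miRNA is sequenced with its strand, so the arms of opposite strands are told apart by their letters.

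These opposite-strand miRNAs were scarce. MiR-219b-5p made up 1.22% to 2.13% of its reads and those of miR-219a-2-3p together. MiR-3065-3p made up 1.26% to 1.99% with miR-338-5p, and miR-3065-5p 0.303% to 0.576% with miR-338-3p. The miR-219c arms, opposite to Mir219a-1, had at most 2 reads in a library and could not be tested.

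MiR-219b-5p measured 42.1, 41.6 and 30.5 CPM in the saline group, 29.8, 12.1 and 39.5 CPM in the LPS group, and with LPS + GAS 40.1, 56.6 and 24.3 CPM. It was lowest in LPS replicate 2 as well, but highest in LPS + GAS replicate 2, where no member peaked. MiR-3065-3p ran from 7.14 CPM in LPS replicate 2 to 22.8 CPM in LPS replicate 3. Their log2 fold changes in LPS vs saline were −0.49 (SE 0.42) and −0.19 (SE 0.40), and neither passed in any comparison.

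MiR-3065-5p measured 4.39, 4.51 and 2.22 CPM in the saline group, 2.39, 2.08 and 2.72 CPM in the LPS group, and with LPS + GAS 4.01, 4.05 and 3.66 CPM. Its LPS and LPS + GAS groups did not overlap, and its log2 fold change in LPS + GAS vs LPS was 0.71 (SE 0.29, 95% interval 0.061 to 1.35). The unadjusted p was 0.0346 and the adjusted p 0.903 by edgeR, so it was not called. It was counted from only 22 to 51 reads per library, and miR-338-3p, the opposite strand of the same stretch, overlapped between the groups. With reads scaled by the library total alone, miR-3065-5p was not at its lowest in LPS replicate 2. On that scale it had 2.47 CPM there, against 2.08 in saline replicate 3 and 2.32 in LPS replicate 1.

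**Figure D4:**
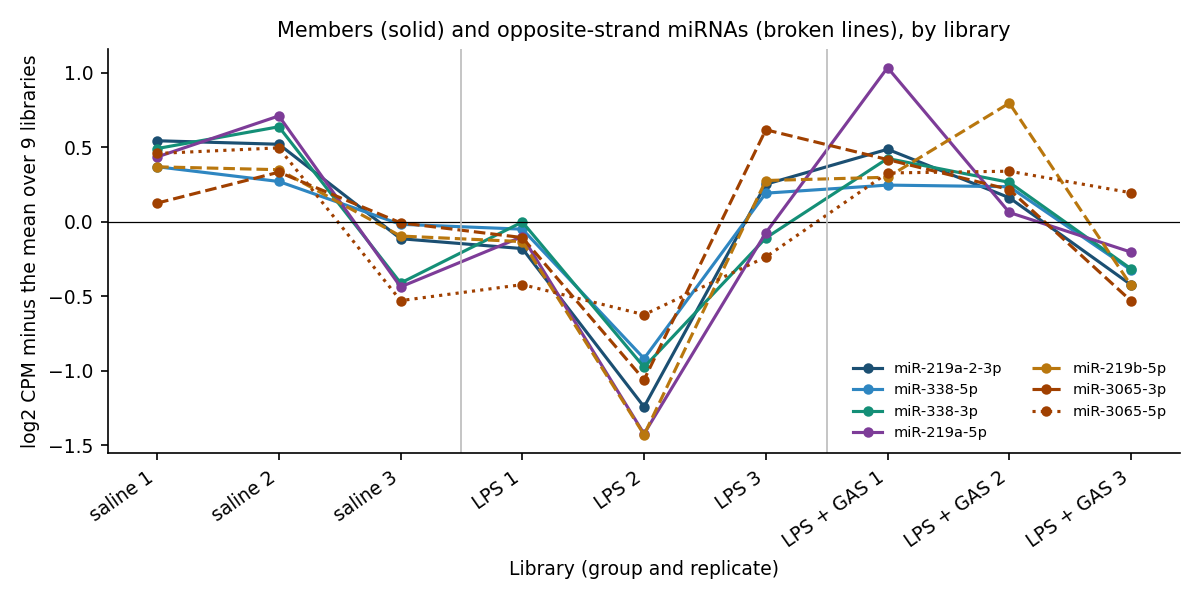
Log2 CPM of each miRNA minus its mean over 9 libraries (vertical axis), by library (horizontal axis), with the 4 members as solid lines and miR-219b-5p, miR-3065-3p and miR-3065-5p as broken lines. Vertical lines separate the groups. All 7 lines are at their lowest in LPS replicate 2, though for miR-3065-5p this depends on the TMM factor. The members are above 0 in saline replicates 1 and 2, and the peak of miR-219b-5p in LPS + GAS replicate 2 is not shared.

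The miRNAs most alike to the members across the 9 libraries were searched among the 624 others, by Pearson's r with the mean of the members' centred log2 CPM. MiR-21a-5p, which is abundant in many glial and immune cells, came first with r = 0.917. It was followed by miR-219b-5p (0.899), miR-27b-3p (0.887), miR-3065-3p (0.868) and miR-99a-5p (0.857), and 12 of the 624 exceeded 0.8. Of these 5, miR-219b-5p and miR-3065-3p are the opposite strands of the members' own hairpins. All 5 were lowest in LPS replicate 2, and without that library r was 0.840 for miR-21a-5p, 0.703 for miR-219b-5p, 0.807 for miR-27b-3p, 0.663 for miR-3065-3p and 0.549 for miR-99a-5p. MiR-3065-5p stood at rank 16 with r = 0.784, and its r was 0.719 without LPS replicate 2.

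Other miRNAs named in work on the oligodendrocyte lineage, which are not specific to it, followed the members in part. Of the 9 listed, 0 were called in any of the 3 comparisons, and their median log2 fold change was −0.012 for LPS against saline, 0.17 for LPS + GAS against LPS and 0.098 for LPS + GAS against saline. The fitted value was negative for 6 of 9 in the first of these, beside 361 of all 628 miRNAs tested. It was positive for 8 of 9 in the second, beside 318 of all 628. These counts were not tested. Their r with the members' mean ran from −0.65 for miR-7a-5p, also a miRNA of neurons and endocrine cells, to 0.69 for miR-19b-3p, a member of the miR-17-92 family of clusters. MiR-32-5p (0.64), miR-27a-3p (0.64) and miR-146a-5p (0.57), a regulator of inflammatory signalling, also had an r above 0.5. The r of miR-9-5p was 0.34, that of miR-23a-3p 0.33, that of miR-138-5p 0.27 and that of miR-145a-5p −0.040. Without LPS replicate 2, r was 0.69 for miR-27a-3p, 0.40 for miR-19b-3p, 0.30 for miR-32-5p and 0.24 for miR-146a-5p. It was then 0.66 for miR-145a-5p, 0.34 for miR-9-5p, 0.23 for miR-23a-3p, −0.28 for miR-138-5p and −0.68 for miR-7a-5p. Of the 9, miR-138-5p, miR-32-5p, miR-19b-3p and miR-146a-5p were lowest in LPS replicate 2 (4 of 9, beside 19.6% of all miRNAs tested). Whether they were lowest there without the TMM factor was not checked. MiR-138-5p, linked to the early steps of oligodendrocyte maturation, differed little between groups, with means of 9838 ± 583, 9681 ± 529 and 9715 ± 566 CPM in saline, LPS and LPS + GAS (SD, n = 3 each).

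Markers of other cell types moved with LPS replicate 2 in part. Of all miRNAs tested, 19.6% were lowest in this library. Its TMM factor was 1.19, and whether these markers were lowest without that factor was not checked. The summed level of 4 microglia and leukocyte miRNAs was 2569 CPM there, nearly all of it miR-150-5p, against 3679 to 6226 CPM in the other libraries. Of the 4, miR-142a-3p, miR-142a-5p and miR-150-5p were at their lowest in this library and miR-223-3p was not. Over 9 libraries the mean was 4795 CPM for miR-150-5p, 14.6 for miR-142a-3p, 13.6 for miR-142a-5p and 8.39 for miR-223-3p, so the sum says little about the last 3. Of 4 vascular miRNAs, 3 were lowest there, and the list's sum ranged from 18597 to 22894 CPM in saline, 16408 to 20672 CPM in LPS and 19950.1 to 21009 CPM in LPS + GAS. Most of this sum was miR-126a-3p, with a mean of 15088 CPM over 9 libraries. MiR-145a-5p, which is also in the lineage list, went the other way, with 162 CPM in LPS replicate 2 against a mean of 96.3. For 6 neuronal miRNAs led by miR-124-3p, none was lowest there, and the sum was 52539 to 77888 CPM in saline, 79057 to 92621 CPM in LPS and 68727 to 96666 CPM in LPS + GAS. For 13 choroid plexus and ependyma miRNAs 1 was lowest there, and the sum was 9557 to 30605 CPM in saline, 9677 to 22958 CPM in LPS and 12273 to 59101 CPM in LPS + GAS. Most of this sum was miR-204-5p, with a mean of 19222 CPM over 9 libraries, followed by miR-1298-5p with 832 CPM. For 5 red blood cell miRNAs 1 was lowest there, and the sum was 2065 to 4317 CPM in saline, 2189 to 3274 CPM in LPS and 4606 to 6222 CPM in LPS + GAS. Nearly all of this sum was miR-451a (mean 3647 CPM over 9 libraries). MiR-486a-5p and miR-486b-5p of this list had equal values (mean 43.1 CPM each) and are not separate measurements. Apart from miR-1912-3p of the choroid plexus list, which was at 0 in 3 libraries, no listed marker was at 0 in any library. The part of these cell types in the low level of the members was not tested.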

How the data were processed

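The authors sequenced small RNA of the hippocampus on the BGISEQ-500 platform and deposited a table with the read count of each mature miRNA in 9 libraries, without normalization. The submitters' notes name GRCm38.p6. An aligner was not given in the sources used here. Beside each count stands an exp value, a whole number at or below it, whose making is not stated. These deposited exp counts were used as an alternative. The table also holds group averages and the authors' own comparisons (log2 fold changes, p-values and q-values), which were not used. The name of each per-library column matched 1 sample.

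The counts were read into edgeR 4.0.16 (R 4.3.3). A miRNA entered the tests when 3 or more of the 9 libraries had 10 reads or more of it (628 of 1448), and 10 reads are about 1 CPM. TMM factors were computed, and glmQLFit was run on all 9 libraries with a mean per group. The groups were compared by glmQLFTest, p-values were adjusted over the 628 by Benjamini-Hochberg, and a call needed an adjusted p not above 0.05 and a difference of 1 or more on the log2 scale. Standard errors and 95% intervals come from the fit. Log2 CPM for correlations used a prior count of 2. Permutation tests were exact, over 20 divisions of 6 libraries or 362880 pairings of 9. Intervals of ratios cover counting error only, since reads were not collapsed to molecules. The steps were tested on simulated counts.

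The members, lists and tests were chosen with earlier results of these data known. The miRNAs named are the members, their hairpin and seed relatives, the lineage and marker lists and the 5 most alike, while miR-21a-3p and those in the closing section were named after their values were seen. MiR-219b-3p was not analysed here. Alternatives were DESeq2 1.42.0 size factors and Wald test, other filters, limma 3.58.1 voom, robust fitting, a block for the replicate number, fits of only the groups compared, no minimum fold change, exp values and each library left out. Scaling by total reads, and correlations without LPS replicate 2, were added after seeing the data. For LPS + GAS against saline, libraries with the same number showed correlated deviations (0.224, 0.243 and 0.275). Libraries with different numbers were not correlated for reference, so these values do not show pairing. Sequences and positions come from the deposited table and RefSeq (GRCm38.p6), and host genes from GENCODE M21.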

Additional observations from a re-analysis of the deposited data

How the results depend on the processing

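For the 4 members in 3 comparisons, 228 values were computed under the alternatives, of which 0 passed the threshold (adjusted p 0.627 to 1.00) and 6 turned in sign, all with a library left out in LPS + GAS vs saline. With each library left out in turn, those log2 fold changes ran from −0.32 (without LPS + GAS replicate 1) to 0.39 for miR-219a-5p, from −0.41 to 0.047 for miR-219a-2-3p, from −0.41 to 0.11 for miR-338-3p and from −0.24 to 0.088 for miR-338-5p, the last 3 turning positive without LPS + GAS replicate 3. In LPS vs saline the lowest values were −0.99, −0.96, −0.87 and −0.63 and the highest −0.37, −0.26, −0.34 and −0.11 in the same order, and in LPS + GAS vs LPS they ran from 0.37 to 1.06, 0.088 to 0.74, 0.23 to 0.67 and 0.019 to 0.50. Differences in log2 ratio ran from −0.074 to 0.18 (miR-219a-2-3p to miR-219a-5p, LPS vs saline), −0.032 to 0.35 and −0.21 to 0.17 (miR-338-5p to miR-338-3p, LPS vs saline and LPS + GAS vs saline) and −0.042 to 0.36 (miR-219a-5p to miR-338-3p, LPS + GAS vs saline), and the other 5 kept their sign. Over all miRNAs, LPS vs saline had 2 calls with no filter on low counts, 1 by the DESeq2 Wald test and 0 to 1 with a library left out (1 without LPS replicate 2 and without LPS + GAS replicate 3). LPS + GAS vs LPS had 0 to 1 (1 without LPS replicate 2), and LPS + GAS vs saline 1 throughout. The cause was not tested. With no filter, the unadjusted p was 0.0473 for miR-219a-5p and 0.0476 for miR-338-3p in LPS vs saline, and 0.0191 for miR-219a-5p in LPS + GAS vs LPS. In LPS vs saline it was 0.0242 for miR-338-3p without saline replicate 3 and 0.0363 for miR-219a-2-3p without LPS replicate 3, and in no other alternative was it under 0.05 for a member.

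With the replicate number as a block, no call on a member changed. In LPS + GAS vs saline the blocked log2 fold changes were 0.0032 for miR-219a-5p, −0.24 for miR-219a-2-3p, −0.14 for miR-338-3p and −0.14 for miR-338-5p, with 1 call over all miRNAs. In LPS vs saline and LPS + GAS vs LPS, where the correlations of same-numbered libraries ran from −0.26 to 0.34 and from −0.24 to 0.032, the block left the calls at 0. The lowest r among the 6 pairs of members, that of miR-219a-5p and miR-338-5p, was 0.698 without the 2 libraries farthest from the median and 0.652 without LPS replicate 2, and no longer passed there by r, while by rho it passed. The members had 728 to 37644 reads per library, and the standard errors of their log2 fold changes were 0.28 to 0.45. By the exp values, which were 81.9% to 93.2% of the reads for miR-219a-2-3p and 97.2% to 99.6% for miR-219a-5p, the ratio of these arms was 8.38 to 15.9.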

Other observations

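Among the 624 other miRNAs tested, miR-676-5p, miR-31-5p and miR-431-5p were the 3 least alike to the members over the 9 libraries, and they were named after their values were seen. MiR-31-5p had r = −0.88 with the mean of the members and measured 969 CPM in LPS replicate 2, above the 316 to 660 CPM of the other 8 libraries. MiR-431-5p, from the imprinted Dlk1-Dio3 region, had r = −0.87 and measured 432 CPM there against 231 to 342 CPM elsewhere. MiR-676-5p had r = −0.88 and measured 8.72 CPM there, from 105 reads, against 4.97 to 7.44 CPM elsewhere. All 3 were thus at their highest in the library where the members were at their lowest, and without that library r was −0.78 for miR-676-5p, −0.73 for miR-31-5p and −0.64 for miR-431-5p. These correlations are descriptions over libraries that share their scaling, and no test was made of them.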
